A study of Sus scrofa with 2 samples.

Results

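The endocrine islets and the acinar tissue of the pancreas are made of different cells. Endocrine cells store peptide hormones in dense-core granules and release them on a rise in calcium, whereas acinar cells make digestive enzymes as zymogens and empty them into the ducts. Nuclei that hold transcripts of both kinds were examined here. A barcode was taken as double-marked when 7 endocrine genes (PCSK2, KCNB2, GRIA3, NOL4, RIMS2, RAB3C and SNTG1) together held at least 3 UMIs (unique molecular identifiers, 1 per counted transcript molecule) and at least 0.3% of its UMIs, and 7 acinar genes (CHN2, EFEMP1, AGMAT, EXTL1, ADAD1, CDH4 and RBPJL) together held at least 3 UMIs and at least 0.5%. Barcodes had to hold 270 to 3700 genes and fewer than 13000 UMIs. The rule found 249 double-marked nuclei among 28583 barcodes, 53 of 13619 in the WT library and 196 of 14964 in the PIGinH11 library. Since the rule itself used these genes, their levels describe the members and support nothing.

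The data were single-nucleus RNA counts from the body of the pancreas of 1 WT and 1 PIGinH11 Bama pig, both 18 months old. PIGinH11 pigs carry 3 knock-in transgenes, GIPRdn, hIAPP and PNPLA3 I148M, at the H11 locus, driven by beta-cell or liver promoters. Both pigs ate the control diet to 6 months and then HFHSD, a high-fat and high-sucrose diet, for 12 months, so the diet was shared by the groups. With n = 1 per group no test between the groups could be made, and genotype, animal and library cannot be told apart. The intervals below are exact 95% intervals and cover counting error only. The WT library held 55784067 UMIs with a median of 3216 per barcode, and the PIGinH11 library held 26228811 with a median of 1181.5. The 2 libraries shared 60 barcode sequences, of which 0 were WT members and 1 was a PIGinH11 member.

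Within the limits on genes and UMIs, the WT library had 325 endocrine-marked barcodes, 53 double-marked and 272 endocrine-only, beside 9567 acinar-only barcodes. The PIGinH11 library had 544, of which 196 were double-marked and 348 endocrine-only, beside 11058 acinar-only barcodes. Double-marked nuclei thus made up 16.3% (95% interval 12.5 to 20.8) of the endocrine-marked nuclei in WT and 36.0% (32.0 to 40.2) in PIGinH11.

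**Figure D1:**
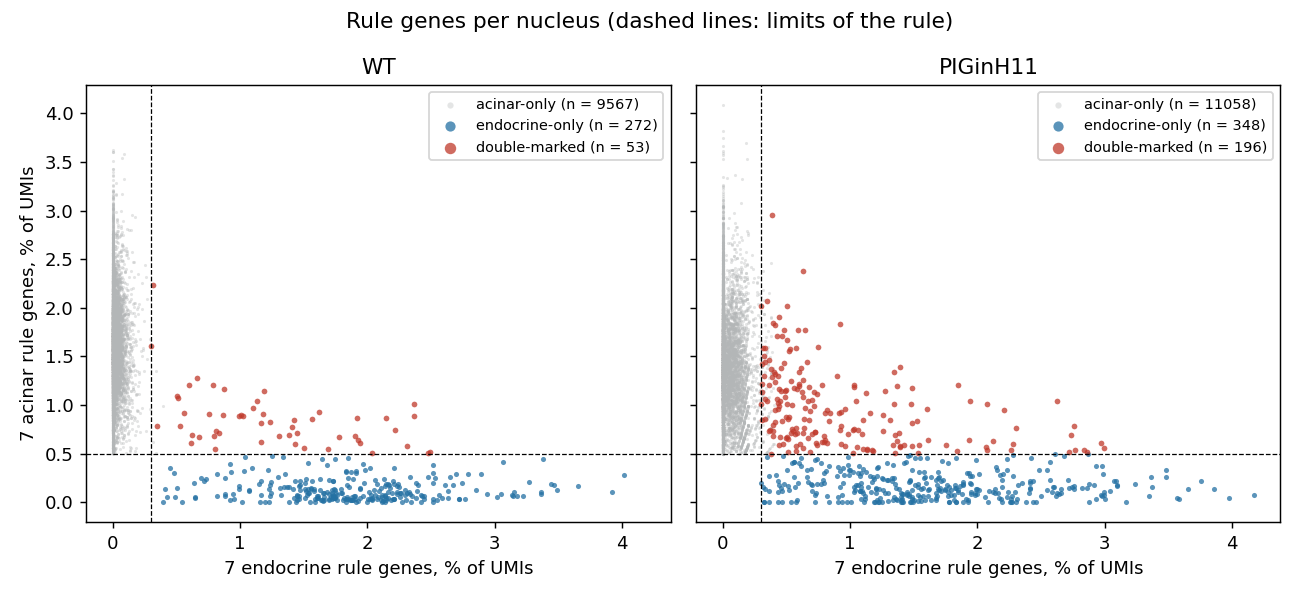
Each point is 1 nucleus, with the share of its UMIs from the 7 endocrine rule genes (x, %) and the 7 acinar rule genes (y, %), for WT (left) and PIGinH11 (right). Within 0.3 to 0.4% on the endocrine axis, beside the acinar-only nuclei, lie 3 of the 53 WT and 27 of the 196 PIGinH11 members.

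The members were not alike in how strongly they carried endocrine transcripts. In WT, 44 of 53 members held 20 or more endocrine rule UMIs, 7 held 6 to 19 and 2 held 3 to 5. The PIGinH11 members split the other way, with 48 holding 20 or more, 68 holding 6 to 19 and 80 holding 3 to 5, and the latter had a median of only 705 UMIs. Just outside the rule lay 17 WT and 25 PIGinH11 acinar-marked nuclei with 3 or more UMIs and 0.2 to 0.3% of UMIs from the endocrine genes, against 3 and 27 just inside it, at 0.3 to 0.4%. On the acinar side, 9 WT and 30 PIGinH11 endocrine-marked nuclei lay at 0.4 to 0.5%, against 8 and 35 members at 0.5 to 0.6%.

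The share of double-marked nuclei differed between the libraries most among shallow nuclei. Of endocrine-marked nuclei with 500 to fewer than 1000 UMIs, 5 of 20 (25%) were double-marked in WT and 109 of 205 (53.2%) in PIGinH11. The shares were 13.1% and 32.4% from 1000 to 2000 UMIs, 15.5% and 19.4% from 2000 to 4000, and 17.2% and 22.8% above 4000. From 2000 UMIs upward the shares were 16.4% (12.0 to 21.6, 40 of 244) and 21.0% (15.6 to 27.3, 42 of 200), and these intervals overlapped. With every nucleus thinned to 1000 UMIs, which left out 1155 WT and 6093 PIGinH11 barcodes, they were 20.1% (15.8 to 24.8) and 28.2% (23.7 to 33.1), also overlapping. Thinned to 500 UMIs, which kept more nuclei, they were 16.4% (12.5 to 21.0, 51 of 311) and 29.8% (25.6 to 34.2, 136 of 457), and these did not overlap. Among nuclei with 20 or more endocrine rule UMIs, a selection on the rule's own genes, 44 of 279 (15.8%) WT and 48 of 264 (18.2%) PIGinH11 nuclei were double-marked.

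**Figure D2:**
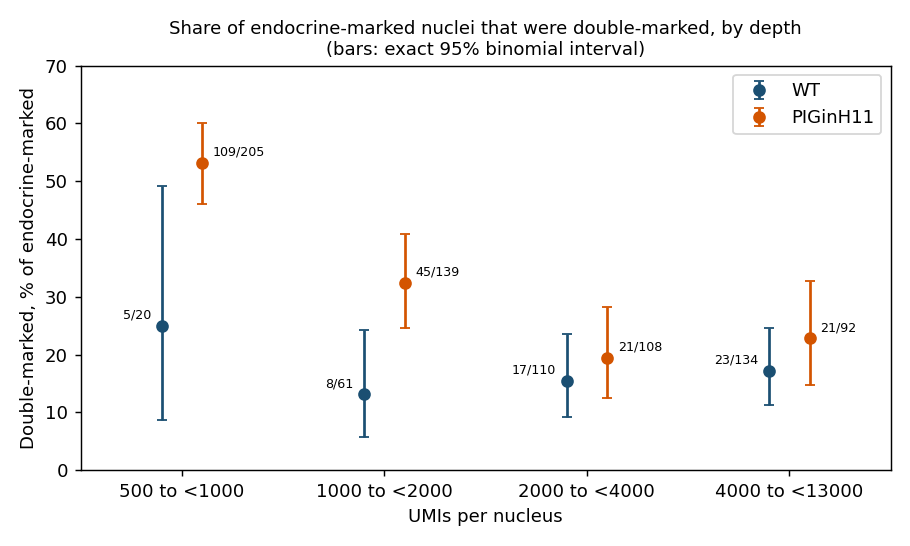
Points give the share of endocrine-marked nuclei that were double-marked (y, %) in 4 bins of UMIs per nucleus (x), bars the exact 95% interval and labels the counts. The intervals of the libraries do not overlap from 1000 to 2000 UMIs (32.4% against 13.1%) and overlap in the other bins.

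PCSK2, the prohormone convertase of endocrine granules (chromosome 17, 25681424 to 25920690, Sscrofa11.1), stood at 3314 UMIs per 1000000 UMIs of the set (CPM) in WT members and 2189 in PIGinH11 members, against 6115 and 4298 in endocrine-only and 11.5 and 25.8 in acinar-only nuclei. KCNB2, a voltage-gated potassium channel subunit (chromosome 4, 62877838 to 63306314), stood at 3575 and 3536 CPM in the members and at 4731 and 5571 in endocrine-only nuclei. Both genes were thus at a level between the single-marked sets in each library. RBPJL, the partner of PTF1A in acinar transcription (chromosome 17, 47631432 to 47642169), was at 958 CPM in WT and 1442 in PIGinH11 members, 1813 and 2466 in acinar-only nuclei, and 59.3 and 96.5 in endocrine-only nuclei. EFEMP1, a secreted matrix glycoprotein (chromosome 3, 85407677 to 85473251), was at 2257 and 2575 CPM in the members against 5108 and 5128 in acinar-only nuclei. CHN2, a GTPase-activating protein for Rac (chromosome 18, 43209186 to 43509592), departed from this order in PIGinH11: it was at 1538 CPM in the members and 1149 in acinar-only nuclei, whereas in WT it was at 2205 and 3333. The members usually carried several genes of each list, with a median of 6 acinar and 6 endocrine rule genes detected per WT member and 5 and 4 per PIGinH11 member. A single acinar gene was detected in 1 WT and 3 PIGinH11 members, and a single endocrine gene in 1 and 8, with 1 and 31 more holding only 2 endocrine genes.

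CHN2 varied with the hormone of the nucleus. A nucleus was assigned a hormone when INS, GCG, SST or PPY had at least 3 UMIs and at least 5 times the share of UMIs it had in acinar-only nuclei. In the 3 WT members assigned PPY, the hormone of gamma cells, CHN2 was at 5923 CPM (123 UMIs), whereas EFEMP1 was at 48.2 CPM and RBPJL had 0 UMIs in 20767, which allows up to 3 UMIs. The 8 PIGinH11 members assigned PPY had CHN2 at 4720 CPM (107 UMIs), EFEMP1 at 618 and RBPJL at 397. The 13 WT and 11 PIGinH11 members assigned INS had CHN2 at 1832 and 1198 CPM, and RBPJL at 861 and 1098. The 6 PIGinH11 members assigned SST, encoding somatostatin, were also high in CHN2, at 2632 CPM (70 UMIs), with RBPJL at 564. High CHN2 was seen in the endocrine-only nuclei assigned PPY as well, at 3532 CPM in 2 WT and 2083 in 7 PIGinH11 nuclei, against 157 and 894 in those assigned SST and 75.3 and 65.6 in those assigned INS. Of all endocrine-marked nuclei assigned PPY, 3 of 5 in WT and 8 of 15 in PIGinH11 were double-marked, against 13 of 151 (8.61%) and 11 of 136 (8.09%) of those assigned INS, 4 of 49 and 14 of 66 (21.2%) of those assigned GCG, and 0 of 16 and 6 of 20 of those assigned SST. Of those with no hormone assigned 33 of 104 (31.7%) and 157 of 307 (51.1%) were double-marked, a share within the interval of the PPY nuclei in both libraries (14.7 to 94.7 and 26.6 to 78.7).

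Without CHN2 in the rule, a setting chosen after these values were seen, 0 of 3 WT and 1 of 8 PIGinH11 members assigned PPY stayed double-marked. Of the 6 PIGinH11 members assigned SST 2 stayed. Of members assigned INS 11 of 13 and 8 of 11 stayed, of those assigned GCG 3 of 4 and 14 of 14, and in all 45 of 53 and 161 of 196 stayed. Most of the members assigned PPY thus met the acinar condition only with CHN2. Lists outside the rule bear on whether these nuclei carried acinar transcripts. Among 9 acinar genes outside the rule, KCNMA1, a potassium channel, and CAMK1D, a kinase, were high in endocrine-only nuclei as well (1976 and 910 CPM in WT, 2736 and 1118 in PIGinH11), so both were left out, a choice made after seeing the data. The other 7 genes were at 289 CPM (106 to 629) in the WT members assigned PPY, against 530 (488 to 575) in endocrine-only nuclei, and at 1500 CPM (1039 to 2096) in those of PIGinH11, against 765 (709 to 825). The digestive enzymes were at 16180 CPM in the WT members assigned PPY, against 38890 in all endocrine-only nuclei and 25516 in those assigned PPY, and at 9882 in those of PIGinH11, against 7103 and 4652. In endocrine-only nuclei assigned PPY the 7 genes were at 618 CPM (248 to 1273) in WT and 1146 (789 to 1609) in PIGinH11, with intervals that overlap those of the members assigned PPY, and 0 of 3 and 1 of 8 of these members exceeded the 95th percentile of endocrine-only nuclei. The label of acinar markers was thus not borne out for the WT members assigned PPY, whereas those of PIGinH11 were above endocrine-only nuclei in the enzymes and not resolved from those assigned PPY in the 7 genes. The 6 PIGinH11 members assigned SST had the 7 genes at 1692 CPM (1234 to 2264), with 0 of 6 above that percentile, and the enzymes at 15416 CPM, against 894 (661 to 1181) and 4888 in endocrine-only nuclei assigned SST. CDH4, a cadherin, also varied between endocrine nuclei: in endocrine-only nuclei assigned GCG it was at 537 CPM in WT and 880 in PIGinH11, against 87.4 and 80.8 in those assigned INS. Without both genes 34 WT and 142 PIGinH11 nuclei were double-marked, which were 10.5% and 26.1% of the endocrine-marked nuclei.

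**Figure D3:**
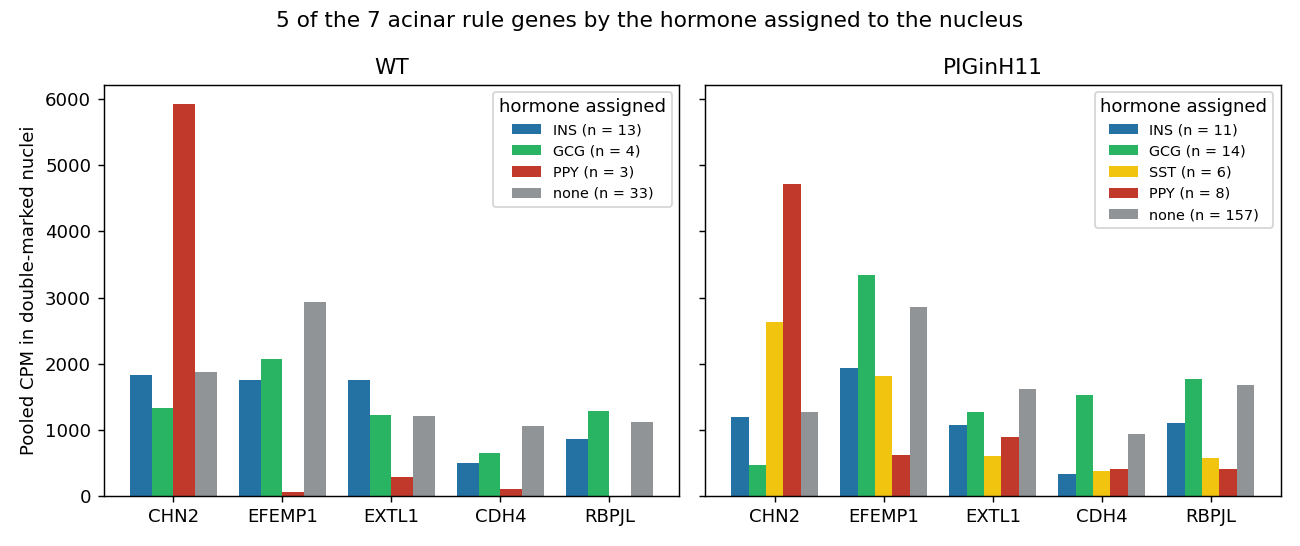
Bars give the pooled level (CPM) of 5 acinar rule genes in double-marked nuclei, grouped by the hormone assigned to the nucleus, for WT (left) and PIGinH11 (right); no WT member was assigned SST. CHN2 is highest in the nuclei assigned PPY (5923 and 4720 CPM), in which EFEMP1 (48.2 and 618 CPM) and RBPJL (0 and 397 CPM) are low.

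By this rule of 3 UMIs most members had no hormone assigned, whereas with 1 UMI 64.2% of WT and 51.5% of PIGinH11 members had one. A hormone was assigned to 20 of 53 WT members (37.7%, 24.8 to 52.1) and 39 of 196 PIGinH11 members (19.9%, 14.5 to 26.2), against 201 of 272 (73.9%) and 198 of 348 (56.9%) endocrine-only nuclei. INS was assigned to 13 WT and 11 PIGinH11 members, GCG to 4 and 14, PPY to 3 and 8, and SST to 0 and 6. The 0 of 53 for SST allows a share of up to 5.66% at 3 counts, or 6.72% by the exact interval. The lower share of members with a hormone was also seen at matched depth: above 4000 UMIs, 11 of 23 WT (47.8%, 26.8 to 69.4) and 12 of 21 PIGinH11 members (57.1%, 34.0 to 78.2) had one, against 104 of 111 (93.7%, 87.4 to 97.4) and 63 of 71 (88.7%, 79.0 to 95.01) endocrine-only nuclei. In the WT bins below 4000 UMIs the intervals overlapped, at 0%, 12.5% and 47.1% of members against 26.7%, 43.4% and 75.3%. In PIGinH11 they overlapped in no bin, at 7.34%, 22.2% and 42.9% below 4000 UMIs against 21.9%, 48.9% and 78.2%.

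INS itself was at 1441 CPM (1284 to 1613) in WT members, 5476 in endocrine-only nuclei and 216 in acinar-only nuclei. In PIGinH11 it was at 811 CPM (714 to 917), 2520 and 98.3. An INS UMI was found in 58.5% of WT and 27.0% of PIGinH11 members, but also in 45.1% and 13.7% of acinar-only nuclei, at median depths of 3587 and 958 UMIs in members and 3035 and 1188.5 in acinar-only nuclei. At 1000 UMIs per nucleus the shares were 39.6% and 21.8% of members and 19.7% and 8.27% of acinar-only nuclei. GCG, encoding glucagon, was at 256 and 402 CPM in the members against 1071 and 888 in endocrine-only nuclei. SST was at 4.74 CPM (1 UMI) in WT and 303 CPM (95 UMIs) in PIGinH11 members, against 171 and 288 in endocrine-only nuclei. GHRL, encoding ghrelin, was at 28.4 and 31.9 CPM in the members and at 23.2 and 30.2 in acinar-only nuclei, so it was read as background.

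Genes that the rule did not use were measured next. The 23 other endocrine genes measured (calcium channel subunits, neurexin and cell adhesion molecules, granins and others) were at 24281 CPM in WT members, 42464 in endocrine-only and 1640 in acinar-only nuclei. In PIGinH11 they were at 19326, 42428 and 4600 CPM. PTPRN2, a dense-core granule protein, gave most of the acinar-only level in both libraries, 1236 and 3872 CPM. Without it the levels were 22076 CPM in WT and 15646 in PIGinH11 members, against 403 and 727 in acinar-only nuclei. The members were thus at 0.572 of the endocrine-only level in WT and 0.455 in PIGinH11, or 0.548 and 0.398 without PTPRN2.

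The 9 other acinar genes were at 7117 CPM in WT members, against 12929 in acinar-only and 3416 in endocrine-only nuclei. In PIGinH11 they were at 7177, 12410 and 4620 CPM. NR5A2, an orphan nuclear receptor of acinar cells, was at 370 CPM in WT and 450 in PIGinH11 members, against 835 and 928 in acinar-only and 46.7 and 79.6 in endocrine-only nuclei. RBMS2, an RNA-binding protein, was at 820 and 874 CPM against 1836 and 2089 in acinar-only nuclei. PTF1A, the acinar lineage factor, had only 2 and 5 UMIs in the members. As a set the members were at 0.550 of the acinar-only level in WT and 0.578 in PIGinH11. Without KCNMA1 and CAMK1D they were at 3267 and 3488 CPM, 0.469 and 0.484 of the acinar-only level, against 530 and 765 CPM in endocrine-only nuclei.

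Nucleus by nucleus, 52 of 53 WT members exceeded the 95th percentile of acinar-only nuclei in the 23 endocrine genes, but 118 of 196 (60.2%) PIGinH11 members did, or 155 (79.1%) without PTPRN2. The 95th percentile of endocrine-only nuclei in the 9 acinar genes was exceeded by 22 of 53 WT (41.5%, 28.1 to 55.9) and 47 of 196 PIGinH11 members (24.0%, 18.2 to 30.6). Without KCNMA1 and CAMK1D it was exceeded by 34 WT (64.2%, 49.8 to 76.9) and 89 PIGinH11 members (45.4%, 38.3 to 52.7). With all genes of both lists, both limits were exceeded by 21 WT and 19 PIGinH11 members, and neither by 0 and 50. Without PTPRN2 neither was exceeded by 0 and 27. The weakly marked PIGinH11 members, with 3 to 5 endocrine rule UMIs, had 9559 CPM of the 23 genes, and those with 20 or more had 23950 CPM.

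**Figure D4:**
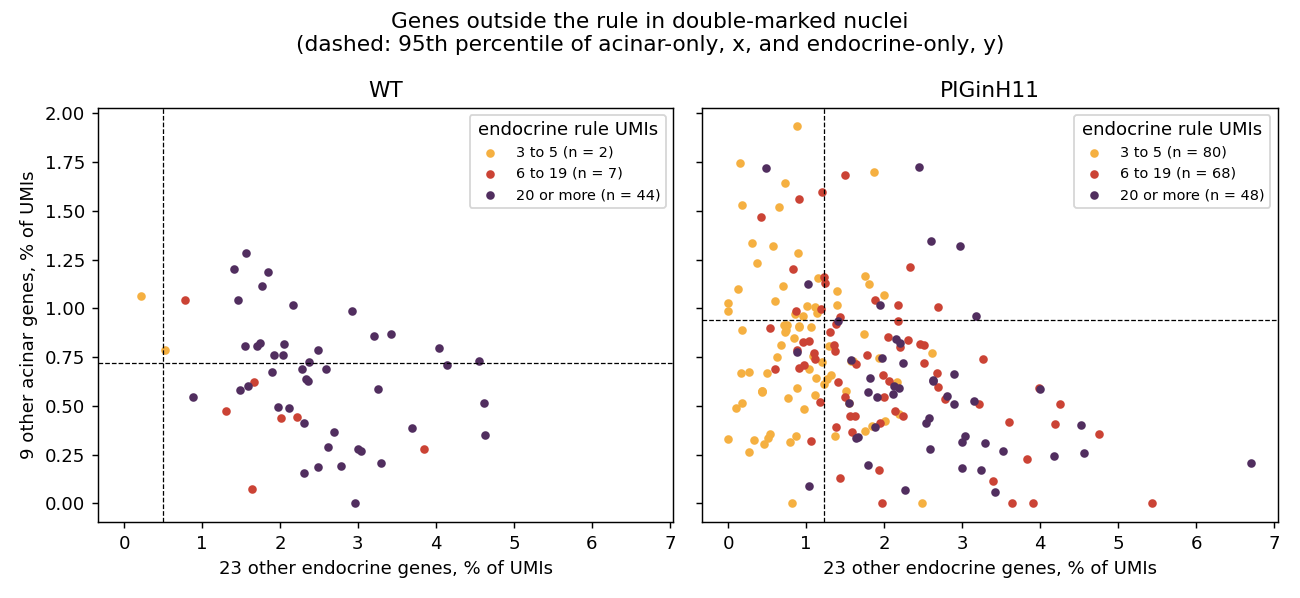
Each point is 1 double-marked nucleus, with the share of UMIs from 23 endocrine genes (x, %) and 9 acinar genes (y, %) outside the rule; dashed lines are the 95th percentiles of acinar-only (x) and endocrine-only nuclei (y), and colours the endocrine rule UMIs. Right of the vertical line lie 52 of 53 WT and 118 of 196 PIGinH11 members, and above both lines lie 21 and 19.

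The digestive enzymes told the members from endocrine-only nuclei in PIGinH11 far more than in WT. The enzyme list of 16 genes also holds CLPS, SYCN, GP2 and SPINK1, acinar secretory genes that do not encode enzymes. These 16 genes were at 45276 CPM in WT members, 38890 in endocrine-only, 37214 in endothelial-marked and 84215 in acinar-only nuclei. In PIGinH11 they were at 34084, 7103, 9162 and 61012 CPM. The members were thus 1.16-fold above endocrine-only nuclei in WT and 4.80-fold above them in PIGinH11. PRSS2, a trypsinogen, was at 18847 CPM in WT members and at 20232 in endocrine-only and 19409 in endothelial-marked nuclei, so it did not mark the members there. In PIGinH11 it was at 3781 CPM against 1259 and 1326. The enzyme UMIs stood to those of the 9 other acinar genes as 6.36 in WT members and 6.51 in WT acinar-only nuclei, but as 11.4 in endocrine-only and 22.996 in endothelial-marked nuclei. In PIGinH11 the values were 4.75, 4.92, 1.54 and 3.81. Taken over the 7 acinar genes without KCNMA1 and CAMK1D, the ratio was 13.9 in WT members, 12.1 in acinar-only and 73.3 in endocrine-only nuclei. In PIGinH11 it was 9.77, 8.46 and 9.28, so it did not separate the sets there.

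Acinar transcripts were also found in other cell types. The acinar condition of the rule was met by 12.5% of ductal-marked nuclei in WT and 19.9% in PIGinH11, by 10.2% and 15.6% of stellate-marked nuclei, and by 4.40% (2.22 to 7.74) and 12.1% (9.05 to 15.7) of endothelial-marked nuclei. Only endocrine-marked barcodes were left out of these classes, so a nucleus could count in several of them. Endothelial-marked nuclei held the 7 stellate genes at 2939 CPM in WT and 3126 in PIGinH11, led by EBF1 (2272 and 2232 CPM). The stellate and endothelial shares are thus not separate comparisons. Macrophage-marked nuclei gave 2 of 47 and 6 of 57. Schwann-marked nuclei gave 7 of 44 (15.9%) and 25 of 65 (38.5%), their median depth in PIGinH11 being 944 UMIs. The Schwann genes did not mark Schwann cells alone. They were at 1076 and 1024 CPM in endocrine-only nuclei, of which 8.82% and 6.90% also met the Schwann limits, against 43.1 and 96.1 CPM in acinar-only nuclei. The interval of the WT endocrine share (12.5 to 20.8) overlapped those of the ductal (11.2 to 13.8), stellate (7.22 to 13.8), macrophage (0.520 to 14.5) and Schwann shares (6.64 to 30.1) and lay above that of the endothelial share. The PIGinH11 interval (32.0 to 40.2) overlapped that of the Schwann share (26.7 to 51.4) and lay above those of the other 4 classes. At 1000 UMIs these relations to the ductal shares changed: the endocrine interval lay above the ductal one in WT (15.8 to 24.8 against 12.8 to 15.6) and overlapped it in PIGinH11 (23.7 to 33.1 against 20.6 to 24.8). At that depth the endothelial shares were 5.91% and 12.8%, the ductal shares 14.2% and 22.7%, the stellate shares 12.8% and 13.3%, the Schwann shares 6 of 44 and 16 of 37 (43.2%, 27.1 to 60.5), the macrophage shares 0 of 46 and 2 of 37, and the endocrine shares 20.1% and 28.2%. Without the highest Scrublet scores the ductal shares were 2.66% and 7.37%, the stellate shares 5.71% and 10.0%, and the endocrine shares 9.96% and 33.9%. The endothelial shares were then 3.72% and 9.24%, and the Schwann shares 16.3% and 38.5%.

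Barcodes with the summed content of 2 nuclei are a known feature of droplet data, so the members were set beside sums of 1 acinar-only and 1 endocrine-only nucleus. Every such pair of the same library was summed, 2602224 in WT and 3848184 in PIGinH11, and 49.7% and 51.8% of them met the rule and the limits. Those pairs had a median of 5842 UMIs in WT and 3005 in PIGinH11. The members had medians of 3587 (lowest 677, highest 12095) and 958 UMIs, 0.614 (0.459 to 0.794) and 0.319 (0.294 to 0.359) of the pair medians. The ratio was 0.981 in WT at limits of 0.5% endocrine and 1% acinar, which left 9 members, and in PIGinH11 it was 0.551 with 5 UMIs of each list and 0.635 below 1300 UMIs. Endocrine-only nuclei had medians of 3410.5 and 1733.5 UMIs, and acinar-only nuclei 3035 and 1188.5. The 95% interval of the WT member median (2679 to 4636) contained both single-marked medians, so their order was not resolved, whereas the PIGinH11 member median (882 to 1080) was below both. Below the pair median lay 44 of 53 and 170 of 196 members. Pairs were built from called barcodes of at least 500 UMIs each, so that limit bounded the pair totals from below.

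**Figure D5:**
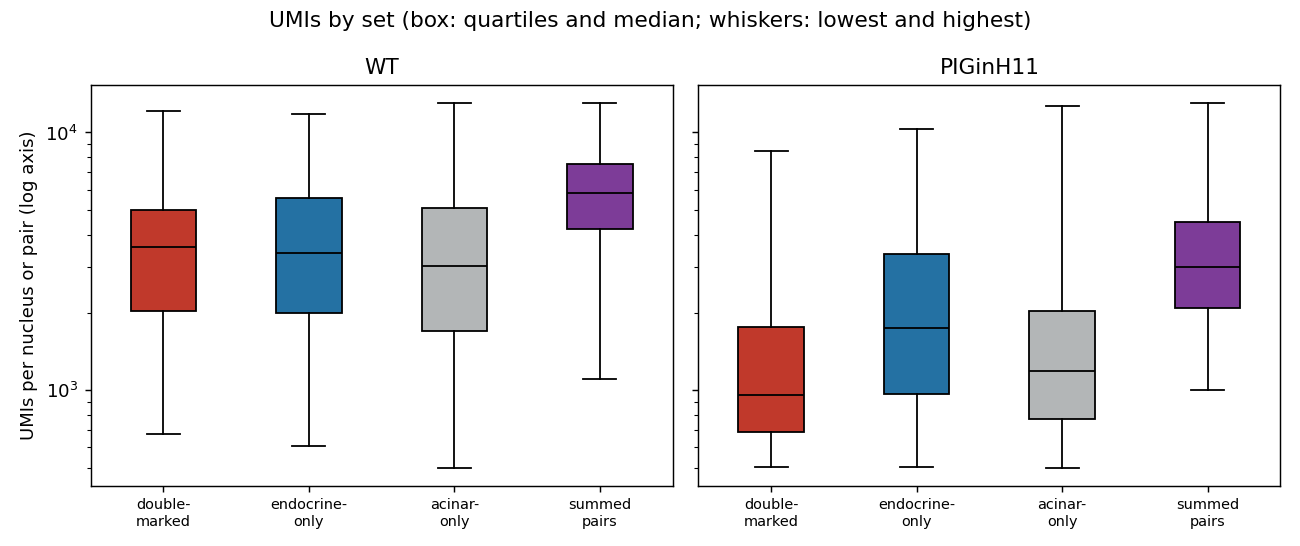
Boxes give the quartiles and median and whiskers the lowest and highest UMIs (log axis) of double-marked, endocrine-only and acinar-only nuclei and of summed pairs that met the rule. The double-marked median (3587 and 958 UMIs) is below that of the pairs (5842 and 3005) in both libraries.

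Doublet scores differed between the libraries. Among the highest Scrublet scores, removed at 0.8% per 1000 barcodes, were 25 of 53 WT members (47.2%, 33.3 to 61.4) and 31 of 196 PIGinH11 members (15.8%, 11.0 to 21.7), against 6.99% and 7.47% of endocrine-only and 11.7% and 13.4% of acinar-only nuclei. Without those barcodes 28 WT and 165 PIGinH11 members were left, which were 9.96% and 33.9% of the endocrine-marked nuclei. Above the limits on genes and UMIs, 16 of 48 endocrine-marked WT barcodes and 2 of 18 PIGinH11 barcodes met the rule. How many members are 2 nuclei in 1 droplet was not tested.

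Across 2347 genes with at least 20 UMIs in the members of each library, few genes differed by 2-fold or more between the members and the summed pairs. At least 2-fold above the pairs were 40 genes in WT (1.7%) and 18 in PIGinH11 (0.767%), with 12 in both (0.511%). At least 2-fold below were 2 genes in WT (0.0852%) and 8 in PIGinH11 (0.341%), with 0 in both. Without the highest Scrublet scores, which left 28 WT members and 1236 genes, 82 genes were above (6.63%) and 11 below (0.89%) in WT, and 16 (1.29%) and 9 (0.728%) in PIGinH11. In PIGinH11 the order of genes above and below turned in other settings, with 20 above and 22 below against all pairs, and 17 above and 26 below with means over nuclei. In WT these counts were 39 and 4, and 38 and 5. The median log2 ratio over all 2347 genes was 0.08 and -0.01. These were ratios of pooled CPM, with no test.

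The genes furthest above the pairs in both libraries included several at which nuclei assigned PPY held much of the signal. PPY was at 114 CPM in WT members and 15.6 in the pairs, and at 373 and 60.8 in PIGinH11, log2 ratios of 2.86 and 2.62. Against all pairs, whether or not they met the rule, the ratios were 0.09 and 1.33, and endocrine-only nuclei had 199 and 240 CPM, with 92.3% and 70.1% from 1 nucleus. A single nucleus held 50.0% and 50.4% of the members' PPY UMIs. TRPM3, a cation channel, was at 593 and 116 CPM in WT and 788 and 258 in PIGinH11, and the PPY members, with 9.85% and 7.23% of the members' UMIs, held 71.2% and 26.3% of its UMIs. KCNIP4, a subunit of A-type potassium channels, was at 413 and 198 CPM and at 418 and 187, of which the PPY members held 79.3% and 31.3%. NLGN1, a synaptic adhesion protein, was at 621 and 115 CPM and at 600 and 163, with 42.7% and 14.4% in the PPY members. Without CHN2 in the rule PPY was below the pairs, at log2 ratios of -0.78 and -0.72. KCNIP4 was at -1.76 and -1.0 and TRPM3 at 0.13 and -0.26, whereas NLGN1 stayed above at 1.59 and 0.93. That setting kept 0 of 3 WT and 1 of 8 PIGinH11 members assigned PPY and moved the others into the endocrine-only nuclei of the pairs. A fall of PPY, and of genes held largely by these members, was thus built into the setting, and no conclusion is drawn from it. With that setting 19 WT (1.01%) and 5 PIGinH11 genes (0.265%) of 1887 tested were at least 2-fold above the pairs.

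The remaining genes at the top were RBMS3, NKAIN2, DOK6, ZNF804A, EPHA3 and MARCHF1, and in WT 1 nucleus held much of their signal. In WT members 1 nucleus held 87.5% of the UMIs of NKAIN2, 75.6% of DOK6, 53.8% of RBMS3, 47.6% of MARCHF1, 39.3% of ZNF804A and 32.1% of EPHA3. In PIGinH11 members 1 nucleus held 51.8% of the ZNF804A UMIs and at most 27.6% of those of the others. Genes at least 2-fold above both single-marked sets numbered 18 in WT (0.767%) and 7 in PIGinH11 (0.298%), and 5 in both (0.213%): CACNA2D3, a calcium channel subunit, DOK6, a docking protein, EPHA3, an ephrin receptor, NKAIN2, and RBMS3, an RNA-binding protein. For CACNA2D3, 1 nucleus held 51.7% of the UMIs in WT and 27.8% in PIGinH11 members. Its log2 ratio to the higher single-marked set was only 1.03 in WT. Without CHN2 in the rule DOK6 was below the pairs, at -0.084 and -0.19, EPHA3 was at 0.29 and 0.49 and MARCHF1 at 1.20 and 0.20, whereas RBMS3 was at 3.15 and 1.31, NKAIN2 at 3.99 and 1.33 and ZNF804A at 1.71 and 3.42. Nuclei that this setting took out of the members joined the endocrine-only nuclei of the pairs. Below both sets by 2-fold there was no gene in either library. With each gene counted without its top nucleus, 15 WT and 12 PIGinH11 genes were at least 2-fold above the pairs and 11 and 21 below.

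The 10 genes lowest against the pairs in both libraries were SDK1, SLC44A1, DYNC1I1, ETV5, ARRB1, CD74, TMED10, CMSS1, GRID1 and NT5DC1. None of them reached 2-fold in either library. SDK1, an adhesion molecule, was at 123 CPM in WT members and 244 in the pairs, and at 303 and 505 in PIGinH11. DYNC1I1, a dynein intermediate chain, was at 256 and 375 CPM, and at 335 and 495.

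Islet transcription factors were held by the members in both libraries. The 19 factors measured were at 2622 CPM in WT and 2269 in PIGinH11 members, against 3166 and 3751 in endocrine-only, 1741 and 2135 in the pairs, and 232 and 298 in acinar-only nuclei. RFX6, a factor of islet development, was at 322 and 252 CPM against 653 and 687 in endocrine-only nuclei. PAX6, found in all islet cell types, was at 247 and 124 CPM against 381 and 337. ETV1 was at 256 and 185 CPM against 88.1 and 169 in endocrine-only nuclei, and the PPY members held 81.5% and 25.9% of its UMIs. PDX1 had 6 and 3 UMIs and NKX6-1 7 and 1, too few to order.

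Genes of glucose sensing and insulin release were above the pairs in WT members and below them in PIGinH11 members. INS was assigned to 13 of 53 WT and 11 of 196 PIGinH11 members, and the part of this in these levels was not tested. The 10 genes of this list were at 2110 CPM in WT members and 1820 in the pairs, and at 1308 and 1920 in PIGinH11. ABCC8, the sulfonylurea receptor, was at 1195 CPM in WT and 775 in PIGinH11 members, against 1805 and 2214 in endocrine-only nuclei. SLC30A8, the zinc transporter of insulin granules, was at 284 and 86.2 CPM against 626 and 469. SLC2A2, the glucose transporter GLUT2, was at 199 and 63.8 CPM against 608 and 369. IAPP, encoding amylin, had 0 UMIs in the members and in the endocrine-only nuclei of both libraries, so its level could not be compared.

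Few UMIs came from precursor factors. NEUROG3, the transient factor of endocrine precursors, had 0 UMIs in the members of both libraries, which allows up to 3 UMIs in 210907 and 313369. SOX9, a duct and progenitor factor, had 3 and 2 UMIs, KRT7 1 and 1, and HES1 2 and 0. The 9 genes of this list were at 275 CPM in WT and 176 in PIGinH11 members, led by ONECUT1 (185 and 73.4 CPM), which was at 279 and 117 in acinar-only nuclei. Cell cycle genes had 9 and 11 UMIs in the members over 9 genes. The 14 stress genes were at 1868 and 1193 CPM, between endocrine-only (717 and 592) and acinar-only nuclei (3460 and 2091). TXNIP went the other way between the libraries, at 161 CPM in WT and 460 in PIGinH11 members. Its log2 ratio was 1.51 (0.96 to 2.10), beside 1.12 in acinar-only and 1.43 in endocrine-only nuclei. Mitochondrial transcripts were at 1285 CPM in WT and 562 in PIGinH11 members, against 1387 and 536 in acinar-only and 695 and 197 in endocrine-only nuclei.

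Few members met the rule for another cell type, and ductal genes gave most of those that did. The 7 ductal genes were at 692 CPM in WT and 1037 in PIGinH11 members, led by DCDC2 (166) and PKHD1 (223). They were at 590 and 636 CPM in acinar-only and at 958 and 1007 in endocrine-only nuclei. Ductal-marked were 3 and 18 members (5.66% and 9.18%), against 5.15% and 8.91% of endocrine-only nuclei. The 7 endothelial genes were at 52.2 and 172 CPM, led by VWF and FGD5, with PTPRB and PLVAP at 0 in WT. Stellate genes, 7 in number, were at 166 and 469 CPM, led by PID1 and EBF1, against 345 and 510 in endocrine-only nuclei. Stellate-marked were 0 and 6 members. The 7 macrophage genes were at 56.9 and 137 CPM (12 and 43 UMIs), led by MRC1 and PTPRC, with CSF1R at 0 in both and CD163 at 0 in PIGinH11. Endocrine-only nuclei had 40.4 and 86.4 CPM and acinar-only nuclei 13.5 and 34.3. The members were at 2.24 (1.15 to 3.90) and 2.42 (1.75 to 3.26) of the level of the summed pairs. The 7 Schwann genes were at 541 and 428 CPM, led by NRXN3, which endocrine nuclei also express, with SOX10 at 0 in PIGinH11. Over the pairs, PIGinH11 members were at 1.45 (1.29 to 1.61) for ductal, 1.39 (1.17 to 1.63) for stellate, 1.66 (1.25 to 2.17) for endothelial and 0.792 (0.664 to 0.938) for Schwann genes. In WT these were 1.09 (0.917 to 1.28), 0.945 (0.658 to 1.31), 1.43 (0.715 to 2.56) and 1.06 (0.874 to 1.27), not resolved from the pairs. The cause of these differences was not tested.

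Between the groups, 36 of the 2347 genes were at least 2-fold higher (1.53%) and 77 at least 2-fold lower (3.28%) in PIGinH11 than in WT members, with 1 library each and no test. The median log2 ratio was -0.11 in the members, against 0.01 in acinar-only and 0.04 in endocrine-only nuclei, and with it set to 0 the counts were 51 and 51. The members differed between the libraries in median depth (3587 and 958 UMIs) and in how many held 3 to 5 endocrine rule UMIs (2 and 80), and the part of this in the ratios was not tested. With members of 20 or more endocrine rule UMIs alone, a selection on the rule's own genes, 57 genes were higher (3.31%) and 35 lower (2.03%) among 1722.

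The genes with the highest and lowest ratios are given beside their ratios in acinar-only and endocrine-only nuclei, in that order. PNLIPRP1, a pancreatic lipase-related protein, was at 2342 CPM in WT and 10017 in PIGinH11 members, a log2 ratio of 2.10 (1.96 to 2.24), beside 1.44 and 0.72. PRSS2 was lower, at -2.32 (-2.41 to -2.22), beside -2.44 and -4.01. CTNNA3, an alpha-catenin, was at -2.70 beside -1.97 and -0.11, MT1X, a metallothionein, at -1.84 beside -2.30 and -3.33, and SLC23A2, an ascorbate transporter, at -1.80 beside -1.81 and 0.51, with 54.4% of its WT UMIs in 1 nucleus. SDC2, a syndecan, was at -1.86 beside 0.08 and -1.0. ROBO1, an axon guidance receptor, was at 1.90 beside 0.68 and 0.67, with 31.1% and 28.8% of its UMIs in 1 nucleus of each library. ABLIM1, an actin-binding protein, was at 1.68 beside -0.04 and 0.28, DCLK1, a microtubule-associated kinase, at 1.54 beside 0.98 and 0.89, and PPY at 1.71 beside 0.84 and 0.27.

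By list, 0 of the 20 endocrine genes outside the rule with enough UMIs were at least 2-fold higher in PIGinH11 members and 4 were lower (CADM2, GRM5, PLCXD3 and CHGA), with a median log2 ratio of -0.46 beside 0.03 in endocrine-only nuclei. Of all genes tested in the members 3.28% were lower. Among members with 20 or more endocrine rule UMIs, the level of the 23 genes was 0.588 of the endocrine-only level in WT and 0.564 in PIGinH11. These members were selected on the rule's own endocrine genes and set against all endocrine-only nuclei, so no conclusion is drawn from these levels. Of 5 beta-cell function genes 2 were at least 2-fold lower, with a median of -1.0 beside -0.37 in endocrine-only nuclei. INS was assigned to 5.61% of PIGinH11 and 24.5% of WT members, and the part of this in the ratios was not tested. Among 14 genes of the enzyme list 2 were higher (PNLIP and PNLIPRP1) and 4 lower (PRSS2, CELA2A, CTRC and PLA2G1B), with a median of -0.49 beside -0.47 in acinar-only nuclei. The 7 other acinar genes and the 6 islet transcription factors with enough UMIs had 0 past 2-fold, with medians of 0.09 and -0.31. The median over all 2347 genes was -0.11.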

How the data were processed

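Nuclei of the pancreatic body of 1 WT and 1 PIGinH11 pig were sequenced with the 10x Genomics platform. The authors aligned reads to Sscrofa11.1 and counted UMIs with Cell Ranger (3.1.0 per the labels and methods, 5.0.0 in the header of the deposited matrices). The deposited values were raw counts per gene and barcode, after barcode calling and before doublet removal or limits on genes and UMIs. The smallest barcode held 500 UMIs. The methods state a limit of 1300 UMIs, below the median of the WT library, so 13000 was used and 1300 was tried. Seurat 3.1.1 was named in the submitters' notes and not used here. Doublets were kept in the main counts, and removal of the highest Scrublet scores (scanpy 1.11.5) was an alternative.

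Counts were summed per library and set and given as CPM with exact Poisson intervals. Shares had Clopper-Pearson intervals, gene ratios conditional binomial intervals. With 1 library per group no test was run. Ratios were computed for genes with at least 20 UMIs in the members of each library, called past a fold of 2, and the functions were tested on simulated data. The members and gene lists were chosen with earlier results of these data known. Named genes were those of the lists, the 10 highest and 10 lowest against summed pairs in both libraries, and the 5 highest and 5 lowest between groups. CHN2 and CDH4 by hormone, the genes above both sets and the PPY members were chosen after their values were seen. Of 31908 genes, 841 took their symbol from the reference table. CADPS, INSM1, KRT19, REG3A, REG3G and MKI67 had no row by that name and were not used here, and some single genes of the lists are not reported here. Positions are those of RefSeq for Sscrofa11.1. Python 3.11.15, scipy 1.17.1 and numpy 2.4.6 were used.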

Additional observations from a re-analysis of the deposited data

How the results depend on the processing

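No paired analysis was possible because each group had 1 library, and leaving out a library was not possible either. Values are WT and PIGinH11 in that order. The settings without CHN2, CDH4, PTPRN2, or KCNMA1 and CAMK1D, with 20 endocrine UMIs or 2000 UMIs, thinned to 500 UMIs, and without the top nucleus were chosen after seeing the data. So was every setting other than the main for the ductal, stellate, endothelial and Schwann shares. The share of nuclei with a hormone assigned was higher in deeper nuclei. The part of depth in the gene ratios and the cause of the changes were not tested. The setting with 20 endocrine UMIs selects nuclei on the rule's own genes, so it describes those nuclei only.

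The number of double-marked nuclei was 28 in WT without the highest Scrublet scores, 9 and 44 at 0.5% endocrine and 1% acinar, 8 and 129 below 1300 UMIs, 116 in PIGinH11 with 5 UMIs of each list, 103 in PIGinH11 at 1000 UMIs, and 34 in WT without CHN2 and CDH4. Their share of endocrine-marked nuclei was 9.96% in WT without the highest scores, 2.85% and 9.38% at 0.5% and 1%, 22.9% and 48.7% below 1300 UMIs, and 10.5% and 26.1% without CHN2 and CDH4. In PIGinH11 alone it moved to 25.7% with 5 UMIs, 31.4% without RBPJL, 29.6% without CHN2, 28.2% at 1000 UMIs, 29.8% at 500 UMIs and 21.0% from 2000 UMIs.

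The median UMIs over the pairs were 0.981 in WT at 0.5% and 1%, and in PIGinH11 0.635 below 1300 UMIs and 0.551 with 5 UMIs. This ratio has no value under thinning. The share with a hormone was 12.5% and 7.75% below 1300 UMIs, 64.2% and 51.5% with 1 hormone UMI, and 24.6% in WT at 1000 UMIs. In PIGinH11 it was 13.6% at 0.5% and 1%, 12.7% without CHN2 and CDH4, 27.6% with 5 list UMIs, 11.2% with 5 hormone UMIs and 50.0% with 20 endocrine UMIs.

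The ductal shares were 2.66% and 7.37% and the stellate shares 5.71% and 10.0% without the highest scores, and the ductal shares 14.2% and 22.7% at 1000 UMIs. The acinar level over acinar-only was 0.413 and 0.541 without the highest scores, 0.608 and 0.653 without CHN2, 0.469 and 0.484 without KCNMA1 and CAMK1D, 0.515 and 0.620 as a mean over nuclei, and 0.523 in PIGinH11 with 20 endocrine UMIs. The endocrine level over endocrine-only was 0.667, 0.530 and 0.593 in WT without the highest scores, without CHN2 and as a mean over nuclei, 0.588 and 0.564 with 20 endocrine UMIs, and 0.548 and 0.398 without PTPRN2.

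The main counts were of 2347 genes, as were those for all pairs, means over nuclei, the top nucleus and the median set to 0, whereas 1236 genes could be tested without the highest scores, 1887 without CHN2, 816 with 50 UMIs and 1722 with 20 endocrine UMIs. Genes at least 2-fold above the pairs numbered 82 in WT without the highest scores (6.63%, against 1.7%), 19 and 5 without CHN2, 10 and 5 with 50 UMIs, and 15 in WT without the top nucleus. Those below numbered 11 in WT without the highest scores (0.89%, against 0.0852%), 4 and 22 against all pairs, 5 and 26 as a mean over nuclei, 0 and 3 without CHN2, 0 and 2 with 50 UMIs, and 11 and 21 without the top nucleus. PIGinH11 over WT gave 19 higher without the highest scores (1.54% of those tested, against 1.53% in the main count) and 84 lower (6.8% against 3.28%), 57 higher and 141 lower as a mean over nuclei, 7 and 23 with 50 UMIs, 57 and 35 with 20 endocrine UMIs, 62 higher without the top nucleus, and 51 lower with the median set to 0.

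Without CHN2 the log2 ratio to the pairs changed sign for PPY (-0.78 and -0.72), DOK6 (-0.084 and -0.19), KCNIP4 (-1.76 and -1.0) and TRPM3 in PIGinH11 (-0.26), as did KCNIP4 in WT without its top nucleus (-0.26). The setting without CHN2 moved most members assigned PPY into the endocrine-only nuclei of the pairs, so the change for PPY follows from the setting.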
